A study of Macaca mulatta with 24 samples.

Results

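Gene expression in the jejunum of rhesus macaques was compared between day 12 and day 4 after total-body irradiation (TBI), with radiation dose as a block. The comparison used every array of 4 irradiated groups, namely 8 arrays of day 4 (4 after 6.7-Gy and 4 after 7.4-Gy TBI) and 4 arrays of day 12 (2 after each dose), which are 12 of the 24 arrays of the series. The other arrays were 8 of day 7 and 4 unirradiated controls, which carry the day 4 label; they entered no test of the days and are given as background. Per the study's methods, the animals were young-adult males that had either a sham exposure or 1 uniform gamma-ray dose (cobalt-60), and RNA came from whole tissue of the jejunum. There were 24 animals for 24 arrays, and per those methods RNA samples were not pooled. The general treatment text of the labels names another last day than the sample titles and day labels do, and the day of the titles was used here.

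The lining of the small intestine is renewed from dividing cells in the crypts, and these cells are among the most sensitive to radiation in the body. Damaged cells switch on genes that the transcription factor p53 controls, crypts that lost their dividing cells stop supplying the villi, and signals from the injured wall draw in leukocytes. Surviving crypts later divide and rebuild the lining. The genes below are ordered along that course, from the damage response and inflammation to the epithelium, the wall and the cells in it.

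A level is the log2 background-corrected signal of a probe minus the 75th percentile of its array, so that 0 is the signal of a bright probe and negative levels are dimmer. On the compared arrays, 39.4% to 87.6% of 43603 probes were well above background, and no probe was saturated. Genes of jejunal enterocytes (SLC5A1, LCT), Paneth cells (DEFA6), goblet cells (ZG16) and muscle (DES, ACTG2) were well above background on all 12 arrays, and CD79B of B cells was too, while MS4A1 of B cells was too dim to be tested. FABP6, a bile acid binding protein of the ileum, had a mean level of 2.66 on day 4 and 3.11 on day 12, against -2.13 in the controls. The first day 12 replicate after 7.4-Gy TBI stood apart. On the first principal component of the 12 arrays, which held 26.6% of the variance, it lay at 98.45, against 30.75 to 32.76 for the other 3 day 12 arrays and -41.30 to -3.50 for day 4. It came from slide 5, 41.2% of its probes were well above background, and it is called the outlying array here. The day 4 arrays of slide 5 were also low, at 49.6% (6.7 Gy, replicate 1) and 39.4% (7.4 Gy, replicate 3). On component 2 (18.4% of the variance, of which slide held 71.3%), these lay at 28.79 and 57.03. The outlying array lay at 50.11 there, and the other day 12 arrays at -50.42 to -40.66. The part of the slide in its standing apart was not tested. All 4 day 12 arrays lay at position 4 of their slides and all 8 day 4 arrays at positions 1 and 2, so day and position cannot be told apart. In whole tissue, fewer cells of a type and less RNA per cell cannot be told apart either.

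By day 12 the jejunum had lower levels than on day 4 of the p53 targets GDF15, DDB2 and EDA2R, the chemokine CCL19, the matrix gene POSTN and the lipocalin LCN15. It had higher levels of the detoxifying enzymes CYP2D6, GSTA1 and NQO1, the gut hormones GIP and GCG and the iron reductase CYBRD1. Of 26634 probes tested with limma 3.58.1, 901 (3.38%) passed an adjusted p of 0.05 with at least a 2-fold difference, and are named called. Of these, 339 (1.27% of those tested) were higher on day 12 and 562 (2.11%) were lower. The median change over all probes was 0.096. Among the called probes, 623 had no overlap between the 4 day 12 and the 8 day 4 arrays, which held for 2682 probes (10.1%) of all tested. The changes passed 4-fold for 60 probes, 22 of them higher on day 12. With 1 probe for each of 11406 genes, 135 (1.18%) were called higher and 272 (2.38%) lower. An adjusted p under 0.05 at any size was reached by 771 genes (6.76%) that were higher and 883 (7.74%) that were lower. These shares are the background for the counts of each gene list.

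**Figure D1:**
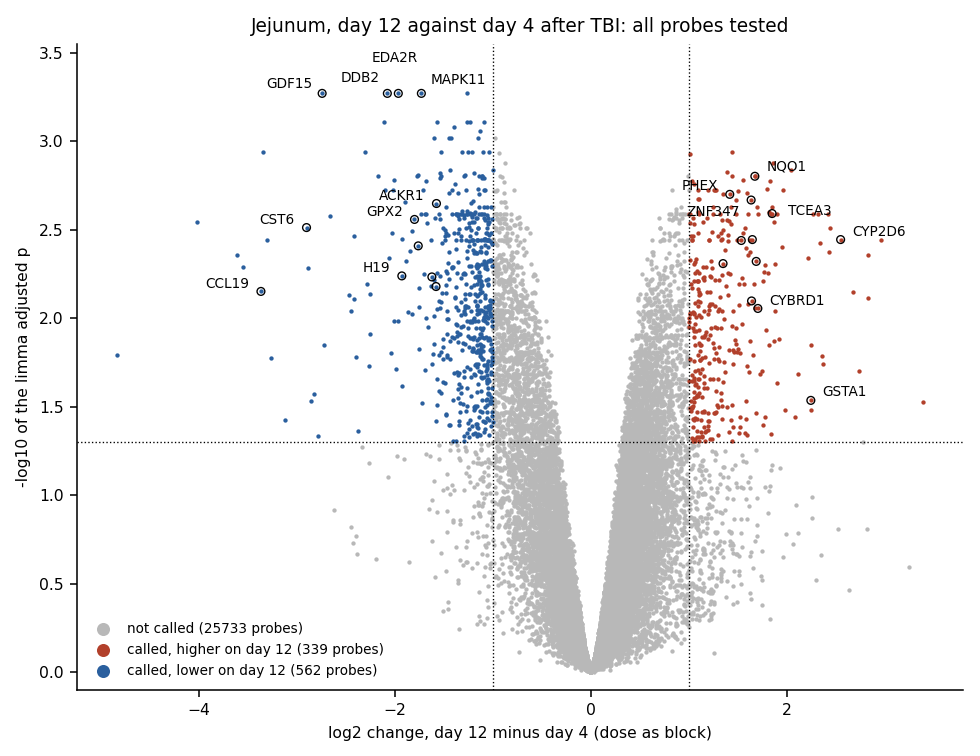
Log2 change from day 4 to day 12 (x axis) against -log10 of the limma adjusted p (y axis) for the 26634 probes tested, 1 point per probe; dotted lines mark 2-fold and an adjusted p of 0.05. Red points are the 339 probes called higher on day 12, blue points the 562 called lower, grey points the others, and open circles the 12 largest rises and 12 largest falls among genes detected on all 12 arrays without overlap. GDF15, DDB2, EDA2R and MAPK11 are among the probes with the lowest adjusted p, 5.37e-04.

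The count depended on the outlying array, on the treatment of dim signals and on what was held constant. It was 487 with normexp background correction, 422 with a common floor for dim signals and 399 over probes well above background on all 12 arrays. Without that array 724 probes were called, 333 higher and 391 lower, and 565 of them were among the 901. With slide as a fixed block 738 were called, 601 of them among the 901. On each of the 4 slides that held both days, the day 12 array lay beyond every day 4 array of that slide, in the direction of the change, for 813 (90.2%) of the called probes and 7391 (27.8%) of all probes tested. These arrays also chose the called probes, so this share is a description. When the authors' percentile was taken over detected probes only, 1009 were called and 247 (24.5%) of them were higher, in place of 37.6%. The mean level of 17 smooth muscle genes ran from 2.58 to 3.47 on day 4 (median 2.79) and from 2.09 to 2.31 on day 12, with no overlap, and from 2.27 to 2.87 in the controls. With that level as a covariate, added after seeing the data, 2 probes were called, CCR7 and LOC706413. Day and dose held 67.9% of the variance of that level, the median standard error of the 901 grew from 0.25 to 0.42 and their median size of change went from 1.22 to 1.05. Of the 901, 898 kept their direction and 488 were still at least 2-fold. The part of muscle content in the results was not tested further.

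The p53 targets that were called were all lower on day 12. Of 22 tested, 7 were called lower, where 2.38% of all genes were, and none higher, and 12 were lower at an adjusted p under 0.05 of any size. The median change of the 22 was -0.65, against 0.070 over all genes. Their summed linear level was 102 to 133 on day 4 and 63.1 to 69.5 on day 12, and the controls had 58.5 to 62.8. The changes of single members ran from -2.74 to 0.47.

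DDB2, which binds ultraviolet-type lesions in DNA for excision repair, ran from 3.64 to 4.35 on the day 4 arrays (median 4.21). On day 12 it stood at 1.70 and 2.26 after 6.7-Gy TBI and at 2.00 and 2.28 after 7.4-Gy TBI. Every day 12 array lay below every day 4 array, and above the controls, which ran from 1.21 to 1.61. The log2 change was -2.07 ± 0.16 (SE, n = 4 and 8), a 4.21-fold fall (limma adjusted p = 5.37e-04). GDF15, a stress cytokine that damaged cells secrete, ran from 3.96 to 4.47 on day 4 (median 4.08). On day 12 it stood at 1.45 and 2.44 after the lower dose and at 0.53 and 1.24 after the higher. The groups did not overlap, and the fall was 6.68-fold (log2 change -2.74 ± 0.24, limma adjusted p = 5.37e-04). EDA2R, a death-receptor relative in the TNF receptor family, ran from 0.44 to 1.25 on day 4 (median 0.93). It stood at -1.18 and -1.36 and at -1.03 and -0.67 on the day 12 arrays of the 2 doses. These lay below all day 4 arrays but above all controls, at -3.04 to -2.51 (log2 change -1.96 ± 0.17, limma adjusted p = 5.37e-04).

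The other called p53 targets were PLK2 (-2.02, adjusted p = 0.00189), a kinase of the stress response, ZMAT3 (-1.43, 9.57e-04), an RNA-binding protein, the death receptor FAS (-1.32, 0.00248) and the ribosomal protein relative RPS27L (-1.09, 0.00358). The pro-apoptotic BAX had a change of -0.93 and the cell cycle inhibitor CDKN1A of -0.76 (adjusted p = 0.00117 and 0.0462), both short of 2-fold. MDM2, the ubiquitin ligase that removes p53, had a change of 0.11, the cyclin CCNG1 of -0.047, the repair factor XPC of 0.047 and TP53INP1 of 0.47, of which TP53INP1 alone passed an adjusted p of 0.05 (0.0424). The calls of all 7 held with any 1 array left out. ZMAT3 was well above background on 7 of 8 day 4 and 3 of 4 day 12 arrays, and its call was lost with normexp background correction and with a common floor for dim signals.

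**Figure D2:**
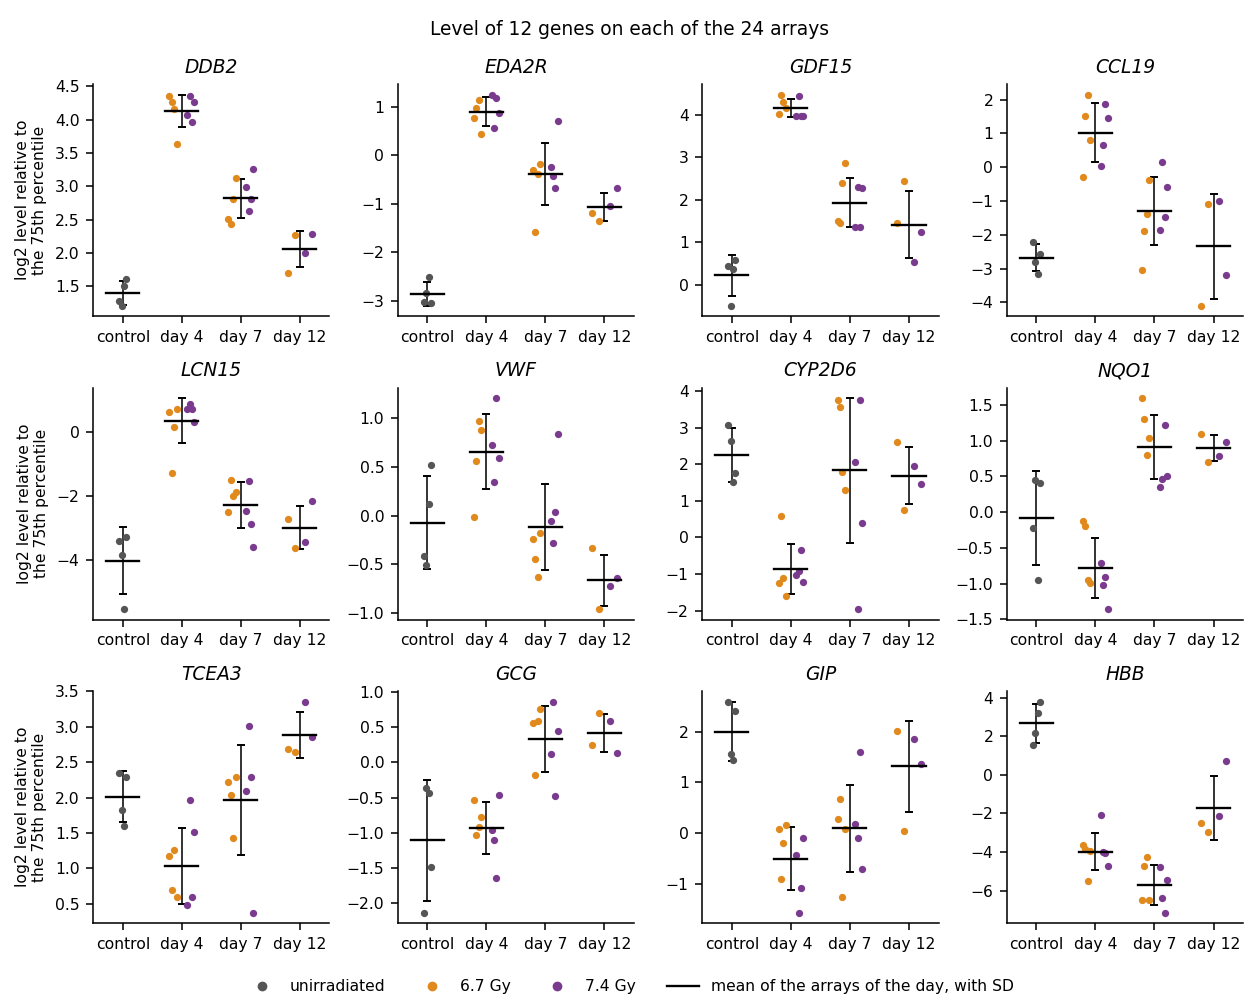
Log2 level (y axis) of 12 genes on each of the 24 arrays, by controls, day 4, day 7 and day 12 (x axis), with grey points for controls, orange for 6.7 Gy and purple for 7.4 Gy; black lines are the mean of all arrays of a day and bars the SD. DDB2, EDA2R, GDF15 and LCN15 fell from day 4 to day 12 with day 7 means between them, while CYP2D6, NQO1, TCEA3, GCG, GIP and HBB rose from day 4 to day 12.

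Chemokines, the small proteins that guide leukocytes, were lower on day 12 where they were called. Of 23 CC and CXC chemokines tested, 5 were called lower, where 2.38% of all genes were, and none higher. At an adjusted p under 0.05 of any size 7 were lower and 1 higher, the eosinophil attractant CCL24 (0.91, adjusted p = 0.00495), and the median change was -0.67. CCL19, which guides lymphocytes and dendritic cells that carry CCR7, had the largest fall. It ran from -0.29 to 2.15 on day 4 (median 1.13), and stood at -4.10 and -1.08 after 6.7-Gy and at -0.997 and -3.19 after 7.4-Gy TBI on day 12. The day 12 arrays varied widely, but none reached the day 4 range, and the controls ran from -3.15 to -2.21 (log2 change -3.36 ± 0.63, limma adjusted p = 0.00706). CCR7 itself, a receptor of naive and memory lymphocytes, had a log2 change of -2.25 ± 0.48 (adjusted p = 0.0123), with overlap between the days and signals well above background on 7 of 8 day 4 and 2 of 4 day 12 arrays. ACKR1, a receptor that binds chemokines on venules without signalling, fell by 1.57 ± 0.21 on the log2 scale (adjusted p = 0.00225).

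CXCL1, which attracts neutrophils, ran from -3.31 to 0.79 on day 4 (median -1.96). Day 12 gave -4.52 and -5.95 after the lower and -2.60 and -4.92 after the higher dose. The days overlapped, and 2 of the 4 day 12 arrays were well above background (log2 change -2.85 ± 0.76, adjusted p = 0.0294). This call was lost without the third day 4 replicate after 6.7 Gy (-2.67, adjusted p = 0.0508) and without either day 12 replicate after 6.7 Gy or the second after 7.4 Gy (adjusted p = 0.0838, 0.0974 and 0.0802). CCL2, a monocyte attractant, fell by 1.87, CXCL3 by 1.34 and CXCL12, a stromal chemokine, by 1.21 (adjusted p = 0.00918, 0.0380 and 0.00114). CXCL3 lost its call without any day 12 array or without the second day 4 replicate after 6.7 Gy or the third after 7.4 Gy (adjusted p up to 0.0983). CXCL8 had a change of -2.26, CCL23 of -2.33 and CXCL13 of -1.91 without a call (adjusted p = 0.0656, 0.0534 and 0.0621). The epithelial chemokines CCL25 and CCL28, which home lymphocytes to the gut, had a change of 0.39 and 0.46 (adjusted p = 0.164 and 0.693).

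Of 19 genes of TNF and NF-kB feedback, 2 were called lower, where 2.38% of all genes were, and the median change was -0.17 (-0.085 with normexp). These were IER3, an early response gene (-1.53, adjusted p = 0.00157), and VCAM1, an adhesion molecule of activated endothelium (-1.09, 0.00478), whose call was lost with replicate number as a block. TNF had a change of -1.27 and IL6 of 1.47, neither called (adjusted p = 0.0754 and 0.0676). Of 20 interleukins and receptors, IL18, an epithelial cytokine, was called lower (-1.35 ± 0.18, adjusted p = 0.00196), although a second IL18 probe had a change of 0.58. IL6R was called higher (1.13, adjusted p = 0.0461), with signals well above background on 3 of 8 day 4 and 3 of 4 day 12 arrays, and its call was lost on leaving out any of 10 of the 12 arrays, all but the first day 12 replicate after 6.7 Gy and the second after 7.4 Gy (adjusted p up to 0.133). None of 19 interferon response or 13 antigen presentation genes was called, and their medians were 0.034 and -0.017, of either sign under other scalings. Without the outlying array these medians were -0.21 and -0.18. The mean level of the interferon response genes was 1.08 on that array and -0.25 to -0.15 on the other 3 day 12 arrays, and that of antigen presentation 6.24 against 5.31 to 5.38.

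Antimicrobial genes differed among themselves. LCN15, a lipocalin of the gut, ran from -1.29 to 0.86 on day 4 (median 0.66). It stood at -2.73 and -3.63 after 6.7-Gy and at -3.46 and -2.16 after 7.4-Gy TBI on day 12. The days did not overlap, the controls ran from -5.55 to -3.28, and 2 of the 4 day 12 signals were well above background (log2 change -3.34 ± 0.37, adjusted p = 0.00114). REG1B, a regenerating-family lectin, was called lower (-1.72, adjusted p = 0.0300), and PIGR, the receptor that carries IgA across the epithelium, higher (1.03, 0.0476). Both had overlapping days. REG1B lost its call without the first day 12 replicate after 6.7 Gy or the second after 7.4 Gy (adjusted p = 0.104 and 0.104). PIGR kept its call only when the fourth day 4 replicate of either dose was the array left out, and its adjusted p otherwise reached 0.115. The Paneth cell defensin DEFA6 had a change of -0.43 and lysozyme LYZ of -0.29 (adjusted p = 0.411 and 0.658). In all, 19 antimicrobial genes were tested and 3 were called, where 3.57% of all genes were.

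Enzymes that detoxify foreign compounds stood among the largest rises. Of 21 aryl hydrocarbon receptor targets and xenobiotic enzymes tested, 3 were called higher, where 1.18% of all genes were, and none lower, and the median change was 0.64. CYP2D6, a cytochrome P450 that oxidizes drugs, ran from -1.61 to 0.58 on day 4 (median -1.07). On day 12 it stood at 2.60 and 0.75 after 6.7-Gy and at 1.95 and 1.45 after 7.4-Gy TBI. All 4 day 12 arrays lay above all day 4 arrays, in a 5.85-fold rise (log2 change 2.55 ± 0.41, adjusted p = 0.00360), and the controls ran from 1.51 to 3.09. NQO1, a quinone reductase, ran from -1.36 to -0.13 on day 4 (median -0.93). Its day 12 levels were 1.098 and 0.70 after the lower and 0.79 and 0.98 after the higher dose. The day 12 arrays were above all day 4 arrays and also above all controls, at -0.95 to 0.44 (log2 change 1.67 ± 0.20, adjusted p = 0.00158), and both other NQO1 probes were called with 1.58 and 1.59.

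GSTA1, a glutathione transferase, rose by 1.82 ± 0.25 at its brightest probe (adjusted p = 0.00251). A second probe gave 2.25 ± 0.59 (0.0291), and that call was lost without the first day 12 replicate after 6.7 Gy, the outlying array or the second day 12 replicate after 7.4 Gy (adjusted p = 0.102, 0.0648 and 0.0800). CYP2D and GSTA genes have close relatives whose transcripts a probe may also bind, and this was not tested. Outside the list, the lactonase PON3 rose by 1.69 ± 0.29 and ALDH1A1, which makes retinoic acid, by 1.64 ± 0.32 (adjusted p = 0.00478 and 0.00799). Neither overlapped between the days. CYP1A1, the best known target of the aryl hydrocarbon receptor, had the widest change of the list, 3.25 ± 1.82, but did not pass (adjusted p = 0.254), and UGT3A1, a glycosyltransferase, gave 2.78 (0.0501). CYP3A4, the main intestinal P450, had a change of 0.80 and CYP1B1 of -0.88 (adjusted p = 0.189 and 0.0593).

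All 20 subunits of oxidative phosphorylation had a positive change, with a median of 0.51 (0.33 with quantile normalization) and a highest value of 0.66. None reached 2-fold, and 9 passed an adjusted p of 0.05, where 6.76% of all genes did so with a higher level, among them ATP5B of the ATP synthase (0.66, 0.00684) and COX5A of cytochrome oxidase (0.66, 0.00814). Their mean level was 4.49 ± 0.12 (SD, n = 8) on day 4, 4.92 ± 0.12 (SD, n = 4) on day 12 and 5.03 ± 0.11 (SD, n = 4) in the controls. Of 18 fat absorption genes none was called, though SAR1B, which loads chylomicron transport vesicles, and MOGAT2, which rebuilds triglyceride, passed the adjusted p with 0.70 and 0.81, and APOC2, the cofactor of lipoprotein lipase, with -0.91; in all 3 were higher and 1 lower. Of 19 brush border genes none was called. The peptidase ENPEP (0.70, adjusted p = 0.0131) and the scaffold PDZK1 (0.99, 0.0320) passed without reaching 2-fold, and lactase LCT had a change of -1.06 (0.148). Cholesterol synthesis had no call among 16 genes.

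Several genes of enteroendocrine cells, the scattered sensing cells of the lining, were higher on day 12. Of 17 enteroendocrine and tuft cell genes tested, 4 were called higher, where 1.18% of all genes were, and none lower, and the median change was 0.45 (0.27 with a common floor for dim signals). GIP, the incretin hormone of the upper gut, ran from -1.56 to 0.16 on day 4 (median -0.31). Day 12 gave 2.01 and 0.046 after 6.7-Gy and 1.86 and 1.36 after 7.4-Gy TBI. One day 12 array lay within the day 4 range and the others above it, and the controls ran from 1.44 to 2.59 (log2 change 1.82 ± 0.40, adjusted p = 0.0141). Without the first day 12 replicate after 6.7 Gy the change was 1.59 and the call was lost (adjusted p = 0.0564). GCG, which encodes the glucagon-like peptides, ran from -1.64 to -0.46 on day 4 (median -0.94) and stood at 0.25 and 0.70 and at 0.58 and 0.14 on the day 12 arrays of the 2 doses. The days did not overlap (log2 change 1.34 ± 0.20, adjusted p = 0.00278).

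PYY, a satiety hormone more abundant in the distal gut, ran from -4.24 to -2.81 on day 4 (median -3.57) and stood at -0.91, -1.94, -1.64 and -1.52 on day 12. The days did not overlap, but PYY was well above background on 5 of 8 and 3 of 4 arrays, and the call was lost with a common floor for dim signals (log2 change 1.97 ± 0.25, adjusted p = 0.00189). The transcription factors of endocrine fate PAX6 and NEUROD1 rose by 1.60 and 1.36 (adjusted p = 0.00437 and 0.0102), neither with overlap. The general marker CHGA had a change of 0.45, somatostatin SST of 0.72 and motilin MLN of 1.09, none called (adjusted p = 0.264, 0.0312 and 0.242). Without the outlying array the same number, 4, was called higher in this list.

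Transport genes were called in both directions. CYBRD1, the ferric reductase of the brush border, ran from 0.85 to 2.72 on day 4 (median 2.33) and stood at 3.52 and 4.42 after 6.7-Gy and at 3.00 and 4.15 after 7.4-Gy TBI on day 12. SLC11A2, the iron importer DMT1, went the other way, from 0.93 to 2.27 on day 4 (median 1.76) to 0.31, 0.52, 0.49 and 0.61 on day 12. Neither gene overlapped between the days, and the changes were 1.70 ± 0.34 and -1.24 ± 0.22 (adjusted p = 0.00881 and 0.00504). The iron exporter SLC40A1 had a change of -0.60, the transferrin receptor TFRC of -0.24 and the calcium binding protein S100G of 1.197, none called (adjusted p = 0.0293, 0.579 and 0.187). CYBRD1 and SLC11A2 were the calls among 17 calcium and iron genes tested. For this list and the next, the shares over all genes were 1.18% called higher and 2.38% called lower. Of 20 nutrient transporters, the glutamate carrier SLC1A1 (1.25, adjusted p = 0.0139) and the chloride exchanger SLC26A3 (1.13, 0.0374) were called higher and the lactate carrier SLC16A1 lower (-1.26, 0.0190). SLC26A3 kept its call in 5 of 12 fits with 1 array left out, those without the first day 4 replicate after 6.7 Gy, any of the last 3 day 4 replicates after 7.4 Gy or the outlying array (adjusted p up to 0.112 in the others). SLC16A1 lost its call without the first day 12 replicate after 6.7 Gy or the outlying array (adjusted p = 0.0724 and 0.0623).

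Of 17 ileal bile acid genes, SLC51B, a basolateral bile acid exporter, was called higher beside PYY (1.06 ± 0.19, adjusted p = 0.00559). It fell short of 2-fold without the fourth day 4 replicate after 6.7 Gy (0.96), the first day 12 replicate after 6.7 Gy (0.93) or the outlying array (0.98). FABP6 varied widely and had a change of 0.46 ± 1.24 (adjusted p = 0.833). For this list and the goblet cell and tight junction lists that follow, the share of all genes called higher was 1.18%. Of 13 goblet cell genes, AGR2, which folds mucins, was called higher (1.16, adjusted p = 0.0412), a call lost on leaving out any array but the first day 4 replicate after 6.7 Gy or the fourth after 7.4 Gy (adjusted p up to 0.102), while MUC2 had a change of -0.59 (0.147). MARVELD2, which seals the corners where epithelial cells meet, was called among 15 tight junction genes (1.05, adjusted p = 0.00176) and fell to 0.98, under 2-fold, without the outlying array.

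With all 12 arrays, no gene of the lists for dividing cells was called. The 19 G2/M genes had no call and their median change was 0.34, or 0.18 without the outlying array and 0.15 with a common floor, with NDC80 at 0.97 and CENPF at 0.72 (adjusted p = 0.106 and 0.162). Of 19 DNA replication genes, TYMS, which makes thymidylate, had the lowest change (-0.93, adjusted p = 0.0382) and did not reach 2-fold. Without the outlying array TYMS was called lower (-1.204, adjusted p = 0.0170), and the median of the DNA replication genes was -0.22 in place of -0.072. Among 19 crypt base and Wnt target genes, HOPX was called higher (1.12, adjusted p = 0.0153) and EPHB3 lower (-1.001, 0.0384). Of the 19, 15 had a negative change, with a median of -0.19, or -0.40 without the outlying array. At an adjusted p under 0.05 of any size 5 were lower and 1 higher, where 7.74% and 6.76% of all genes were. HOPX lost its call without the second day 12 replicate after 7.4 Gy (adjusted p = 0.0511), and EPHB3 on leaving out any array but the third day 4 replicate of either dose, the fourth after 7.4 Gy or the outlying array (adjusted p up to 0.134). The stem cell receptor LGR5 had a change of -0.010 (adjusted p = 0.982) and OLFM4 of -2.19 ± 1.16 (0.228).

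Several genes of the connective tissue were lower on day 12. Of 19 extracellular matrix genes tested, 6 were called lower, where 2.38% of all genes were, and none higher, and 10 were lower at an adjusted p under 0.05, where 7.74% of all genes were, with a median change of -0.90. POSTN, periostin of remodelling tissue, ran from 0.47 to 2.13 on day 4 (median 0.83) and stood at -0.21 and -1.17 after 6.7-Gy and at -0.77 and -1.12 after 7.4-Gy TBI on day 12. The days did not overlap (log2 change -1.76 ± 0.29, adjusted p = 0.00390), and all 3 POSTN probes were called. The type VI collagens COL6A1 and COL6A3 had a change of -1.39 and -1.19, COL3A1 of -1.37, fibronectin FN1 of -1.13 and THBS1 of -1.08 (adjusted p = 0.00763, 0.00992, 0.0202, 0.0154 and 0.0388). FN1 lost its call without the second day 12 replicate of either dose (-0.93 and -0.97), and so did COL3A1 (adjusted p = 0.0645 and a change of -0.93). THBS1 kept its call in 4 of 12 such fits, those without the first day 4 replicate after 6.7 Gy, the second or the fourth after 7.4 Gy or the second day 12 replicate after 6.7 Gy (adjusted p up to 0.112 in the others). COL1A1 had a change of -0.24 and COL1A2 of -1.36 without a call (adjusted p = 0.438 and 0.0524).

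Of 21 matrix proteases and their inhibitors, 6 were called lower, where 2.38% of all genes were, with a median change of -0.88. MMP2, a gelatinase of fibroblasts, fell by 1.23 ± 0.17 on the log2 scale (adjusted p = 0.00255) and kept its call with any 1 array left out. The plasminogen activators PLAU and PLAT had a change of -1.35 and -1.100, cathepsin K (CTSK) of -1.12, MMP9 of -1.23 and SERPINE2 of -1.16 (adjusted p = 0.0282, 0.0103, 0.00900, 0.0376 and 0.0394). Without the outlying array 2 of the 21 were called, MMP2 among them. PLAT then had a change of -0.98 and CTSK of -0.90, while PLAU, MMP9 and SERPINE2 had an adjusted p of 0.0776, 0.0761 and 0.1005. SERPINE2 kept its call only when the first or second day 4 replicate after 6.7 Gy or the fourth after 7.4 Gy was left out (adjusted p up to 0.124 otherwise). PLAU also lost its call without any other day 12 array (adjusted p up to 0.0888), CTSK without the fourth day 4 replicate after 7.4 Gy (-0.9997), and MMP9 without the second day 12 replicate of either dose or any of 3 day 4 arrays, the second after 6.7 Gy and the first and the third after 7.4 Gy (adjusted p up to 0.121).

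Of 18 genes of coagulation and complement, 5 were called lower, where 2.38% of all genes were, namely PLAU, PLAT, VWF, the clotting inhibitor TFPI (-1.18, adjusted p = 0.0103) and complement factor CFB (-1.35, 0.0236), with a median of -0.81, or -0.44 with a common floor for dim signals. Without the outlying array VWF alone was called, TFPI had a change of -0.91 and CFB had an adjusted p of 0.0758; CFB also lost its call without the first day 12 replicate after 6.7 Gy (0.0752). VWF, the platelet-binding factor of endothelium, ran from -0.016 to 1.21 on day 4 (median 0.66) and stood at -0.33 and -0.96 after 6.7-Gy and at -0.72 and -0.64 after 7.4-Gy TBI on day 12. The days did not overlap (log2 change -1.32 ± 0.21, adjusted p = 0.00360). Of 12 endothelial genes, ACKR1, VWF and the growth factor receptor KDR (-1.14, 0.0362) were called lower, where 2.38% of all genes were, 8 were lower at an adjusted p under 0.05, where 7.74% of all genes were, and the median was -0.70, or -0.46 with the common floor. KDR kept its call in 4 of 12 fits with 1 array left out, those without a day 12 replicate after 6.7 Gy or without the first or second day 4 replicate after 6.7 Gy, and had a change of -0.68 without the outlying array (adjusted p up to 0.0737 among the others). PECAM1 had a change of -0.51 (adjusted p = 0.0162) and CDH5 of -0.026 (0.971).

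No smooth muscle gene was called. All 17 smooth muscle genes had a negative change, from -0.95 to -0.13 with a median of -0.67, and 8 passed an adjusted p of 0.05, where 7.74% of all genes did so with a lower level, led by CALD1 (-0.95, 0.00495) and the potassium channel KCNMA1 (-0.82, 0.00615). The contractile protein ACTG2 and the filament protein DES had a change of -0.48 and -0.38 (adjusted p = 0.125 and 0.112). Summed over the list, the linear level was 541 to 955 on day 4, 418 to 505 on day 12 and 447 to 631 in the controls. Of 13 genes of enteric neurons and glia, HAND2 (-1.08, adjusted p = 0.00989) and the neuropeptide VIP (-1.02, 0.0132) were called lower, where 2.38% of all genes were, and the median was -0.83, or -0.22 with a common floor for dim signals. Neither was called without the outlying array (-0.87 and -0.84). VIP also fell short of 2-fold without the second day 12 replicate after 7.4 Gy or the first or the fourth day 4 replicate after 7.4 Gy (changes of -0.99 to -0.92). The summed muscle level was thus lower on day 12 along with the matrix, vessel and nerve genes, and the part of tissue makeup in these results was not tested beyond the covariate.

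**Figure D3:**
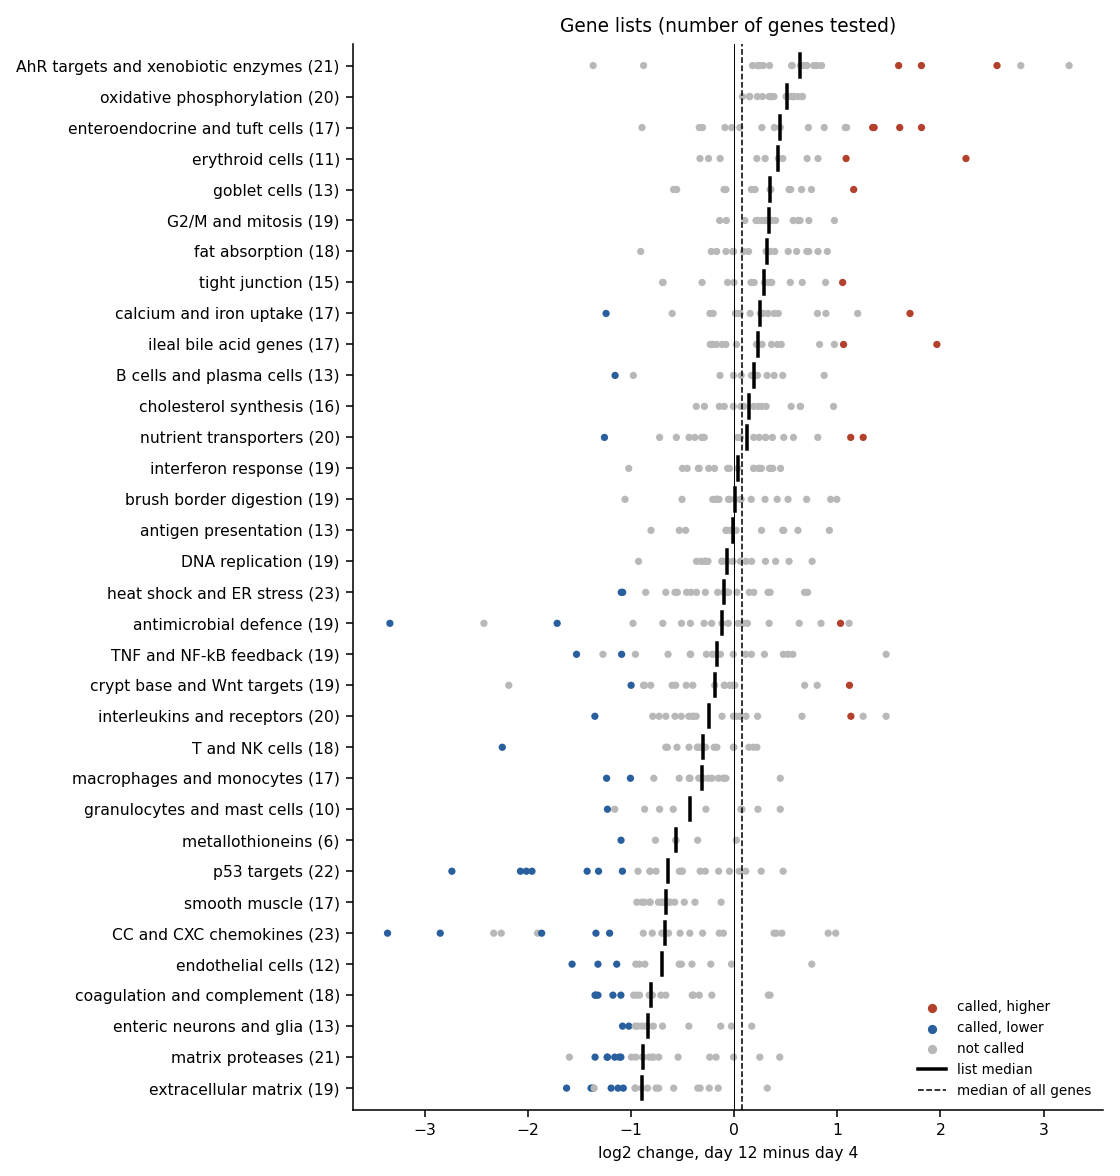
Log2 change from day 4 to day 12 (x axis) of the tested members of 34 gene lists (rows, with the number tested in brackets), 1 point per gene; red and blue points are called higher and lower, grey points were not called, black ticks are list medians and the dashed line is the median of all 11406 genes (0.070). Extracellular matrix has the lowest median (-0.90) and AhR targets and xenobiotic enzymes the highest (0.64).

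In each of the 4 leukocyte lists 1 or 2 genes were called lower, where 2.38% of all genes were, and none higher. The list medians differed in sign. They were -0.30 for T and NK cells, -0.31 for macrophages and -0.43 for granulocytes and mast cells. For B and plasma cells the median was 0.19, and 9 of 13 genes had a positive change. With a common floor for dim signals the last 2 medians were -0.068 and 0.024. Of 18 T and NK cell genes, CCR7 was called, and CD3D and CD3E had a change of -0.44 and -0.65 (adjusted p = 0.189 and 0.0630). Of 17 macrophage genes, the lipid receptor TREM2 (-1.24, adjusted p = 0.0146) and the endotoxin co-receptor CD14 (-1.01, 0.0358) were called lower, and neither was without the outlying array (-0.91 and -0.89). CD14 kept its call in 4 of 12 such fits, those without the first or the fourth day 4 replicate after 6.7 Gy, the second after 7.4 Gy or the first day 12 replicate after 6.7 Gy (adjusted p up to 0.110 in the others). Of 13 B and plasma cell genes, PRDM1, which drives plasma cell fate, was called lower (-1.16, adjusted p = 0.0142), and the first day 12 replicate after 6.7 Gy decided it (-0.89 without). JCHAIN, which joins IgA, had a change of 0.17 (adjusted p = 0.529). MMP9 was the called gene among 10 of granulocytes and mast cells.

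Of 11 erythroid genes, HBB, the beta chain of hemoglobin, and SLC25A37, the mitochondrial iron carrier, were called higher, where 1.18% of all genes were. HBB ran from -5.52 to -2.09 on day 4 (median -3.97) and stood at -2.50 and -2.97 after 6.7-Gy and at -2.16 and 0.70 after 7.4-Gy TBI on day 12. The days overlapped, and the controls, at 1.54 to 3.78, lay above all 12 arrays (log2 change 2.25 ± 0.61, adjusted p = 0.0330). It was well above background on 4 of 8 and 3 of 4 arrays, and the call was lost without the third day 4 replicate after 6.7 Gy, the second or the third after 7.4 Gy, the first day 12 replicate after 6.7 Gy or the second after 7.4 Gy (changes of 1.53 to 2.34). SLC25A37 had a change of 1.08 (adjusted p = 0.00545) and of 0.98 and 0.95 without the first day 12 replicate after 6.7 Gy or the second after 7.4 Gy. HBA2 had a change of 0.22 (adjusted p = 0.366). The part of blood content in these values was not tested.

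Of 23 heat shock and endoplasmic reticulum stress genes, 2 were called lower, where 2.38% of all genes were. These were ASNS, which makes asparagine, and the small chaperone HSPB8 (-1.08 and -1.096, adjusted p = 0.00189 and 0.0144). ASNS fell to -0.92 without the first day 12 replicate after 6.7 Gy, and HSPB8 to -0.98 without the first day 4 replicate after 7.4 Gy. Among 6 metallothionein list genes the zinc importer SLC39A10 was called lower (-1.098, adjusted p = 0.00910; -0.9971 without the fourth day 4 replicate after 6.7 Gy), and MT1X and MT2A, which bind zinc and copper, had a change of -0.76 and -0.57 (adjusted p = 0.338 and 0.494). Over all 34 lists, which were chosen with earlier results of these data known, 65 of 569 genes tested (11.4%) were called, against 407 of all 11406 genes (3.57%).

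**Figure D4:**
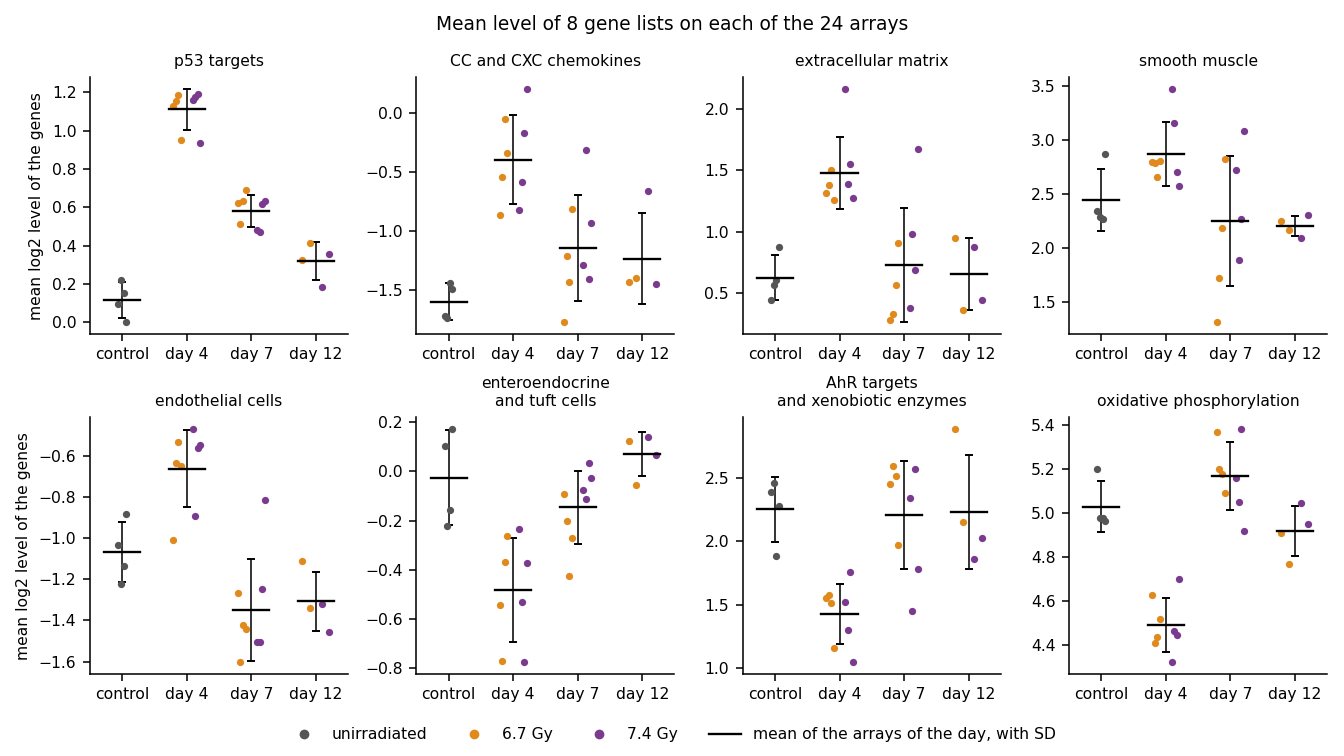
Mean log2 level of the tested genes of 8 lists (y axis) on each of the 24 arrays, by controls, day 4, day 7 and day 12 (x axis); grey points are controls, orange 6.7 Gy and purple 7.4 Gy, black lines the mean of all arrays of a day and bars the SD. The p53 targets had a mean of 1.11 on day 4, 0.32 on day 12 and 0.12 in the controls, and smooth muscle 2.87, 2.21 and 2.44.

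Beyond these lists, the largest changes that were detected on all 12 arrays without overlap came from 142 genes that met those terms, 47 higher and 95 lower. CST6, a cysteine protease inhibitor of epithelia, ran from 1.01 to 2.96 on day 4 (median 2.05) and stood at 0.23 and -2.58 after 6.7-Gy and at -0.85 and -0.68 after 7.4-Gy TBI on day 12. It fell 7.46-fold and the controls ran from -2.82 to -0.31 (log2 change -2.90 ± 0.44, adjusted p = 0.00308). GPX2, the glutathione peroxidase of the gut lining, fell by 1.797 ± 0.27, the imprinted noncoding RNA H19 by 1.93 ± 0.35 and ASS1, which serves arginine synthesis, by 1.62 ± 0.29 (adjusted p = 0.00277, 0.00577 and 0.00585). The actin-associated RAI14 fell by 1.58 ± 0.29 (adjusted p = 0.00663), with 1 of its 2 other probes not called (-0.51). MAPK11, a p38 stress kinase, ran from -0.36 to 0.29 on day 4 (median -0.13) and stood at -1.67, -1.83, -1.91 and -1.81 on day 12. These 4 lay below the lowest control as well, at -1.31 (log2 change -1.73 ± 0.15, adjusted p = 5.37e-04).

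TCEA3, a transcription elongation factor, ran from 0.48 to 1.96 on day 4 (median 0.93) and stood at 2.68 and 2.65 and at 3.35 and 2.85 on the day 12 arrays of the 2 doses. All 4 exceeded the highest control, 2.34 (log2 change 1.85 ± 0.27, adjusted p = 0.00256), and both other TCEA3 probes were called. CHP2, a calcineurin-like protein, rose by 1.65 ± 0.26, NDRG1, a differentiation gene, by 1.54 ± 0.25 and PHEX, a membrane peptidase tied to phosphate balance, by 1.42 ± 0.19 (adjusted p = 0.00360, 0.00364 and 0.00200). ITPKA, an inositol phosphate kinase, rose by 1.35 ± 0.23 (adjusted p = 0.00491). The zinc finger gene ZNF347 rose of 1.64 ± 0.22 at 1 probe (0.00215), while its 5 other probes had a change of 0.045 to 0.47 and were not called. Over all genes, 172 symbols had several probes tested and a call; every probe had 1 direction for 148 of them and was called for 39. Among the 12 largest rises and the 12 largest falls, GSTA1 alone lost its call when 1 array was left out. H19, ALDH1A1 and this GSTA1 probe lost theirs with slide as a fixed block, and CYBRD1, ALDH1A1 and GSTA1 with replicate number as a block.

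**Figure D5:**
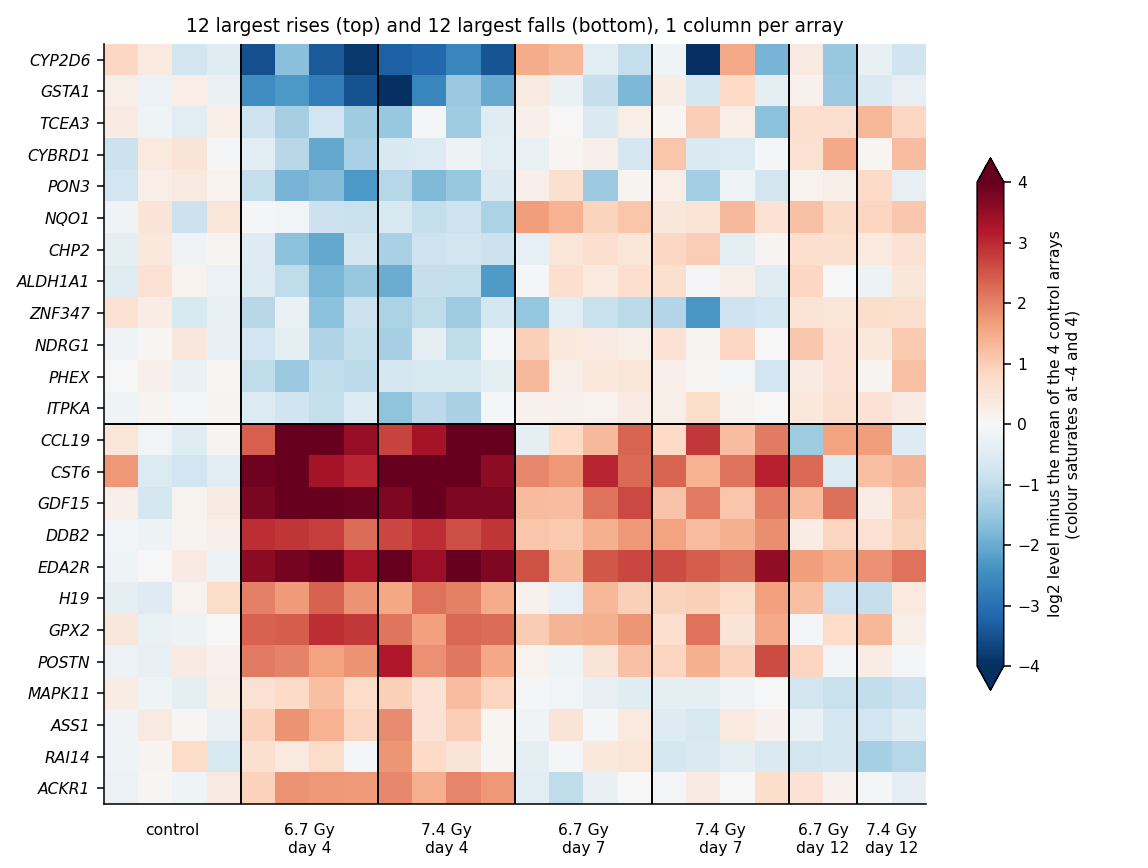
Log2 level minus the mean of the 4 control arrays (colour, red above and blue below controls, saturating at -4 and 4) for the 12 genes with the largest rise and the 12 with the largest fall (rows) on each of the 24 arrays (columns, by group). The 8 day 4 columns are mostly blue in the upper rows and mostly red in the lower rows, and the 4 day 12 columns are paler in most rows; EDA2R remained red, with day 12 levels of -1.36 to -0.67 against -3.04 to -2.51 in controls.

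The change between days was set side by side for the 2 doses. All 901 called probes had the same sign after both doses, and so did 71.3% of all probes tested; the test weighs both doses, so this is a description. The change was larger after 7.4 Gy for 583 (64.7%) of the called probes, for 400 (71.2%) of those that were lower and for 183 (54.0%) of those that were higher, against 51.3% of all probes tested, and after that dose 1 of the 2 day 12 arrays was the outlying one. No probe was called for a difference of the change between doses (0%), but 45 were without the second day 12 replicate after 7.4 Gy, 3 without the outlying array and 1 without the first day 12 replicate after 6.7 Gy. Each of these fits leaves 1 day 12 array for that dose (the outlying one for the 45) and assumes that it varies like the other groups. In limma, 956 of the 26634 probes tested had an unadjusted p under 0.05, where chance alone gives about 1 in 20. Of these 956, 442 had a difference of at least 2-fold, and the lowest adjusted p was 0.755. The 2 genes with the smallest p were UGT3A1, with changes of 5.39 after 6.7-Gy and 0.16 after 7.4-Gy TBI, and RGS16, a regulator of G protein signalling, with -0.29 and -1.95. UGT3A1 was well above background on 4 of 8 day 4 and 3 of 4 day 12 arrays. RGS16 was called lower over both doses (-1.12, adjusted p = 0.0216) but not without either day 12 array after 7.4 Gy (-0.93 and -0.89). With 2 day 12 arrays per dose, an effect of dose that is smaller than the spread between animals could not be seen.

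The unirradiated arrays lay nearer to day 12 than to day 4 for 660 (73.3%) of the called probes, against 16361 (61.4%) of all probes tested. For 544 of the 562 probes called lower, the control mean was below the day 4 mean, and for 327 of the 339 called higher it was above. Of all 26634 probes tested, it was below for 11012 and above for 15622. The mean of the 8 day 7 arrays lay between the day 4 and day 12 means for 801 (88.9%) of the called probes and 45.9% of all. Since the day 4 values also chose the called probes, these shares are descriptions. EDA2R, GDF15 and CST6 had day 12 means of -1.06, 1.42 and -0.97, against control means of -2.85, 0.23 and -2.04. NQO1, TCEA3 and GCG had day 12 means of 0.89, 2.88 and 0.42, all above control means of -0.081, 2.01 and -1.104. HBB stood at -1.73 on day 12 against 2.67 in controls.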

How the data were processed

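RNA of 24 jejunum samples was hybridized to 1-colour Agilent arrays with 43603 non-control probes. The deposited scanner files hold an intensity per spot that Agilent Feature Extraction 11.0.1.1 had corrected for background (gProcessedSignal, grid build rheMac2, per the file headers), and a deposited GeneSpring table gives log2 values that the authors scaled to the 75th percentile and centred on each entry's median. Here spots of a probe were averaged, log2 was taken and the 75th percentile of the array was subtracted; 99.92% of the table's values lay within 0.01 of the same calculation and the largest difference was 3.824. A probe was tested if at least 1 of the 4 groups had it well above background throughout (26634 probes). limma 3.58.1 in R 4.3.3 fitted dose and day (lmFit, eBayes) to 12 arrays, p-values were Benjamini-Hochberg adjusted over all tested probes, and a call needed an adjusted p under 0.05 and at least 2-fold. Where a gene had several probes, gene lists used the brightest and the largest changes used the probe that changed most. Gene names came from the deposited GeneSpring table (23664 probes), as a current symbol in place of that table's for 10 more and from RefSeq for 121. The remaining 19808 probes were unnamed.

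Genes named by rule were the 12 largest rises and falls among called probes that were well above background on all 12 arrays without overlap, the called members of each list (at most 4, or the 2 with the smallest p) and the 2 smallest p for the dose by day term. Other list members are given for their function and were picked after their values were seen. The members and lists were chosen with earlier results of these data known. Alternatives covered background, scaling, filters, blocks, tests, each array left out and, added after seeing the data, muscle level as a covariate. Normexp used the median spot and background signals with an offset of 50, since mean signals were not used here. The number of arrays limits the precision.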

Additional observations from a re-analysis of the deposited data

Results flagged for a closer look

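Among 190 groups of arrays tested for 1 value far from the others, 9 stood out, and chance alone gives about 1 in 20. The first day 4 replicate after 7.4 Gy was the odd array for POSTN, RAI14 and ASNS. POSTN stood at 2.13 there, with the next day 4 array at 1.02, and a second POSTN probe also stood at 2.13, with the next at 1.15. RAI14 stood at 2.33 against 1.35 for the next, and ASNS at 1.72 against 1.46. The lipocalin LCN15 was lowest on the second day 4 replicate after 6.7 Gy, at -1.29 with the next array at 0.14. The interferon-induced IFI6 was lowest on the first day 4 replicate after 6.7 Gy, at -0.72 with the next at 1.51. SLC51B was lowest on the fourth day 4 replicate after 6.7 Gy, at 1.99 with the next at 2.63, and this array also decided its call. NEUROD1 was lowest on the third day 4 replicate after 7.4 Gy, at -3.51 with the next at -2.30. On day 12, CTSK stood at 1.86 on the first replicate after 7.4 Gy, the array that stood apart, with the next at 2.58.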

How the results depend on the processing

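Against 901 called probes, 487 were called with normexp background correction, 399 with probes detected on all 12 arrays only, 422 with a common floor, 417 with 1 probe per symbol and 2 with smooth muscle level as a covariate. Leaving out 1 array gave 724 (without the first day 12 replicate after 7.4 Gy) to 983 (without the first day 4 replicate after 6.7 Gy). The share of called probes with controls nearer to day 12, 73.3%, was 77.3% without a filter on dim probes, 83.5% with probes detected on all 12 arrays, 81.0% with a common floor, 79.3% with the replicate block and 0% over the 2 probes called with the covariate, and 70.6% to 77.3% with 1 array left out. Genes called in the lists, 65, came to 43 with probes detected on all 12 arrays, 42 with a common floor, 1 with the covariate and 55 to 75 with 1 array left out; the setting with 1 probe per symbol gives no separate value there. The dose by day term had no call under the 12 alternatives in which it was fitted to all arrays; it was not fitted under the others, such as the common floor, array weights, the methods' t-test, 1 probe per symbol, the authors' table or the covariate. It had 0 to 45 calls with 1 array left out, 45 without the second day 12 replicate after 7.4 Gy, 3 without the first and 1 without the first after 6.7 Gy; the lone day 12 array of that dose is then assumed to vary like the other groups. With replicate number as a block 702 probes were called, 536 of them among the 901. After group means were removed, 14 pairs of arrays with the same number correlated at -0.138 to 0.236. With 2 day 12 arrays per dose, their deviations mirror each other, so each correlation with one of them recurs with the opposite sign. Some of the 14 pairs also shared a slide. These values therefore cannot show whether the numbers pair the arrays. Of 76 named calls, 59 held with normexp, 54 with the common floor, 56 with slide as a fixed block, 50 with the replicate block, 67 with the methods' t-test 57 to 73 with 1 array left out and 1 with the covariate, so that none held under every setting; none reversed. The cause of these differences was not tested, except that fewer probes or arrays enter some settings. Dim probes near background and 2 day 12 arrays per dose set the limits.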
